A study of Mus musculus with 19 samples.

Results

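The genes described here are 43 chromatin regulators: the Polycomb repressive complexes PRC2 and PRC1, the histone deacetylases (HDACs), the enzymes that write, maintain and oxidise DNA methylation, the BAF remodelling complex, the CHD remodellers, and the demethylases of lysine 27 of histone H3. They were chosen by gene symbol, and all 43 were listed in both deposited tables, of 20162 and 24452 genes. All cells came from embryonic kidneys of CFW mice, and RNA was read with a stranded mRNA library kit. At stage E16.5, in embryonic days, nephrogenic zone cells (NZC, the outer layer in which new nephrons form) of animals with no labelled allele were divided into SIX2+ cells and SIX2- cells. SIX2 is a transcription factor of nephron progenitors, and the name MARIS in the labels stands for sorting of cells after staining inside the cell. These 2 groups and the NZC as a whole had 3 libraries each. GFP+ and GFP- cells, also at E16.5 and with 3 libraries each, came from kidneys carrying the allele Six2TGC/+, in which Six2 regulatory sequence drives GFP and Cre. At E14.5, Tdt+ and Tdt- cells, with 2 libraries each, came from kidneys with Foxd1Cre and a tdTomato reporter, which marks cells with a history of Foxd1, a factor of stromal progenitors. Nothing in the labels ties the libraries of a group to different animals, and the p-values below cover the scatter among these samples, which may be technical.

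PRC2 methylates lysine 27 of histone H3 through Ezh2 or Ezh1, PRC1 ubiquitinates histone H2A and reads that methyl mark, and both hold developmental genes silent. BAF complexes use the ATPase Smarca4 or Smarca2 to slide or evict nucleosomes, and cells exchange paralogous subunits as they differentiate. HDACs remove acetyl groups from histones and other proteins, Dnmt enzymes methylate cytosine in CG dinucleotides, and Tet enzymes oxidise that methyl group. In the kidney these complexes are known for their part in the balance between self-renewal and differentiation of nephron progenitors.

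The promoters of these genes, which the choice did not use, were rich in CG dinucleotides. RefSeq promoters on GRCm38.p6 were found for 38 of the 43 members. Their 50 windows of 250 bases before the start held a median of 21 CG dinucleotides (quartiles 15 and 26.75), against a median of 6 (quartiles 2 and 16) in 32851 windows of 27025 genes. The 3 windows below belong to members that the results turn on, 2 of them with CG dinucleotides and 1 with none. Each is written 5′ to 3′ along its own gene, with every CG dinucleotide in capitals. The Ezh1 window (chr11:101226464-101226713, minus strand) held 14, the Dpf3 window (chr12:83487737-83487986, minus strand) held 16, and the outermost Hdac9 window (chr12:34917096-34917345, minus strand) held 0.
Ezh1: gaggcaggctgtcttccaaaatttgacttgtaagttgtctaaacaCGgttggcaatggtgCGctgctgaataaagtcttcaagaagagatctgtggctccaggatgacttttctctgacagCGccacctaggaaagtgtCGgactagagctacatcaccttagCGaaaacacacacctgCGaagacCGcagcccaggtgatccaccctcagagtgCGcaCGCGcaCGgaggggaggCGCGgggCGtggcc
Dpf3: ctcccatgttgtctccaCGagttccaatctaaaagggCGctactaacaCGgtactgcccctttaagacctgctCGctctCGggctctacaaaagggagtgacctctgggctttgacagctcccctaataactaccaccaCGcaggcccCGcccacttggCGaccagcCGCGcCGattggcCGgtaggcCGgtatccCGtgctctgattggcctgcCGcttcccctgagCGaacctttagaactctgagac
Hdac9: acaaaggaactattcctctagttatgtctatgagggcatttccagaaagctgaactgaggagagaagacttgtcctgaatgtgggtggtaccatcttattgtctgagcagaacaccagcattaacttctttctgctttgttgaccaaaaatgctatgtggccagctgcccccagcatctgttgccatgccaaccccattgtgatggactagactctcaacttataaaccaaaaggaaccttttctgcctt
A second Hdac9 start, at an inner window (chr12:34528890-34529139), held 2 CG dinucleotides. The letters TTTNGCGC, a form of the site bound by E2F factors, were searched on both strands. They occurred in 4% of the member windows, those of Dnmt1 and Uhrf1, and in 1.13% of all windows.

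The labels were checked with the genes used to sort. Six2 stood at 295 to 458 RPKM (reads per kilobase of gene, scaled by library depth) in SIX2+ cells, against 4.43 to 46.8 RPKM in SIX2- cells. It stood at 312 to 348 RPKM in GFP+ cells, against 2.70 to 16.8 RPKM in GFP- cells. Foxd1 stood at 205 and 102 RPKM in Tdt+ cells, against 29.9 and 25.2 RPKM in Tdt- cells. It was the 1 stromal marker of 9 called in that sort: 5 of the 9 had negative log2 differences (median -0.45), and the list summed to 1610 to 2455 RPKM in Tdt+ cells, against 2346 to 3205 RPKM in Tdt- cells. Estimated depth ran from 26.3 to 46.1 M reads (M, mega) in the E16.5 libraries, except for NZC library 2 with 3.10 M reads, which also held 762 RPKM of Rn45s, a ribosomal RNA gene, against 2.12 to 32.5 RPKM in the other E16.5 libraries. At E14.5 the Tdt+ libraries had 9.49 and 8.41 M reads, against 30.9 and 26.3 M reads in the Tdt- libraries, and Rn45s stood at 1928 and 361 RPKM in Tdt+ libraries, against 2716 and 545 RPKM in Tdt- libraries. The sorts also divided other cell types. All 9 stromal markers fell in SIX2+ and in GFP+ cells, with summed levels of 49.4 to 58.8 RPKM in SIX2+ cells against 1196 to 1849 RPKM in SIX2- cells, and 58.3 to 78.8 RPKM in GFP+ cells against 2204 to 3196 RPKM in GFP- cells. All 6 endothelial and all 6 leukocyte markers also fell in both sorts. All 6 erythroid markers fell in GFP+ cells (sums of 11.3 to 50.9 RPKM, against 817 to 8435 RPKM in GFP- cells), and none was called in SIX2+ cells (0.286 to 1.73 RPKM, against 3.68 to 16.2 RPKM in SIX2- cells). Of 8 markers of differentiating nephrons, 6 fell in SIX2+ cells (63.9 to 95.8 RPKM, against 163 to 261 RPKM in SIX2- cells), whereas 2 rose and 4 fell in GFP+ cells (127 to 132 RPKM, against 59.6 to 98.2 RPKM in GFP- cells). No marker of these 5 lists was at 0 throughout a group at E16.5. Their part in the results below was not tested.

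Most of the 43 regulators were expressed in every group. The median of the group means over members lay between 16.46 RPKM in GFP- cells and 23.60 RPKM in GFP+ cells. Hdac2, a class I deacetylase, and Chd4, the ATPase of the NuRD deacetylase complex, were among the most abundant, with means of 119 and 102 RPKM in SIX2+ cells. At the other end stood Hdac9 and Cbx7, together with Dpf1 in SIX2+, NZC and GFP+ cells and with Dpf3 in SIX2-, GFP-, Tdt+ and Tdt- cells. Cbx7, a reader subunit of PRC1, ranged from 0.0659 RPKM in GFP- library 3 to 1.56 RPKM in NZC library 2.

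In SIX2+ cells against SIX2- cells, 5 of the 42 members tested were called higher and 1 lower at an adjusted p under 0.05. The called genes were Chd7, Dpf3, Ezh1, Chd4 and Hdac5 (higher) and Hdac8 (lower). Over all 12817 genes tested, 24.3% were called, 8.37% higher and 15.9% lower, so the share of members called higher, 11.9%, was near the background, and the share called lower, 2.38%, was below it. The median log2 difference of members was 0.19, against 0.04 over all genes. Positive differences were found for 34 of 42 members, beside 6943 of 12817 genes. The libraries did not overlap for 12 members that were higher and 3 that were lower, against 22.5% and 24.9% of all genes. The labels do not say that the replicate numbers pair these libraries, but same-numbered libraries deviated together (r of 0.279 to 0.676). With the replicate number as a block, 11 members were called higher and 1 lower, beside 11.5% and 17.6% of all genes. The calls gained were Smarca4, Smarcc1, Smarcd1, Dpf2, Tet3 and Kdm6b. After rescaling to TPM (transcripts per M, with equal column sums), 3 were called higher, beside 6.30% of all genes, and Chd4 and Hdac5 were lost (adjusted p of 0.0857 and 0.163). Without NZC library 2 in the fit, 8 were called higher, beside 13.6% of all genes, with Ezh2, Tet3 and Smarcd1 gained. In a bulk sample, fewer cells of a type and less RNA per cell cannot be told apart.

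In GFP+ cells against GFP- cells, 13 of 42 members were called higher and 1 lower. The background was 32.9% called, 15.9% higher and 17.0% lower, against 31.0% and 2.38% of members. The 13 were the 5 of the antibody sort together with Ezh2, Hdac6, Tet3, Smarca4, Smarcb1, Smarcc1, Smarcd1 and Kdm6b, and the gene called lower was again Hdac8. With the replicate block, used here on the same ground, 17 were called higher and 1 lower, beside 20.0% and 19.2% of all genes. Eed, Cbx2, Uhrf1 and Dpf2 were gained. Rescaled to TPM, 7 were called higher, beside 10.3% of all genes, and Hdac5, Tet3, Smarca4, Smarcb1, Smarcc1 and Kdm6b were lost (adjusted p between 0.0554 and 0.115). With replicates 1 and 2 alone, 9 were called higher, beside 10.2% of all genes. Hdac5, Tet3, Smarcc1, Smarcd1 and Kdm6b were lost there (adjusted p between 0.05004 and 0.222), as was the lower call of Hdac8 (0.204), and Cbx2 was gained. The median log2 difference was 0.23 over members and 0.09 over all genes. Values did not overlap for 17 members that were higher and 1 that was lower, against 28.7% and 24.4% of all genes. The antibody and GFP sorts share no libraries. All 6 members called in the antibody sort were called in the same direction in the GFP sort, which is 100% of 6 and 42.9% of 14. Over all genes, 84.4% of 3109 calls and 62.2% of 4219 calls were shared in this way. Across members the log2 differences of both sorts had a Pearson r of 0.86 (42 genes, which are not independent replicates), against 0.91 over all 12817 genes.

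**Figure D1:**
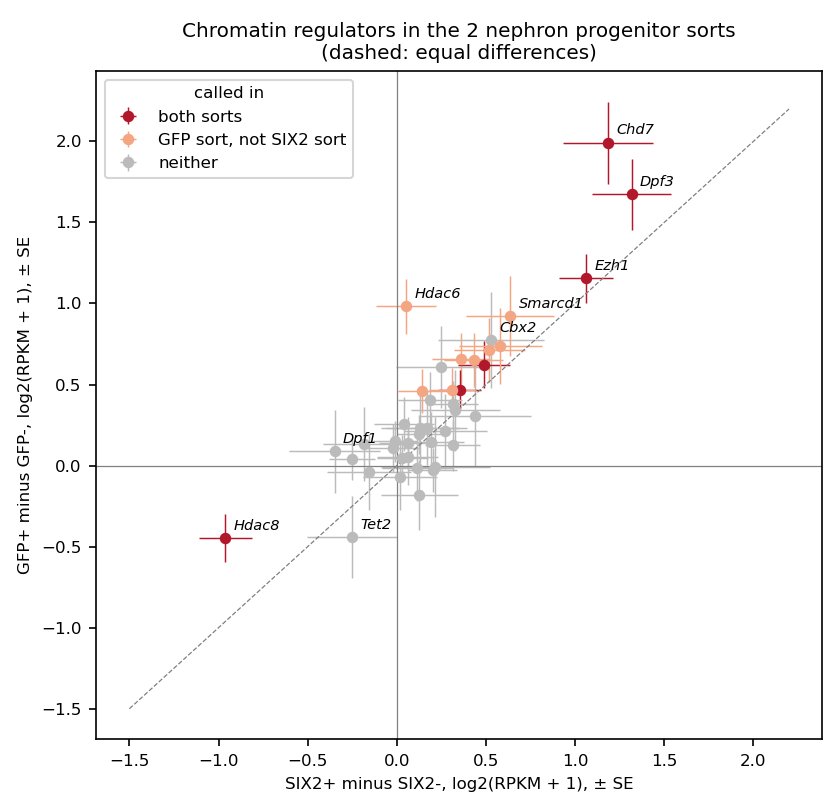
Log2 difference, on the log2(RPKM + 1) scale, of SIX2+ over SIX2- cells (x axis) and of GFP+ over GFP- cells (y axis) for the 42 members tested; bars are standard errors, colours show in which sort a member was called, and the dashed line marks equal differences. Chd7, Dpf3 and Ezh1 lie at the upper right, Hdac8 at the lower left, and Hdac6 lies near 0 on the x axis and at 0.98 on the y axis.

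**Figure D2:**
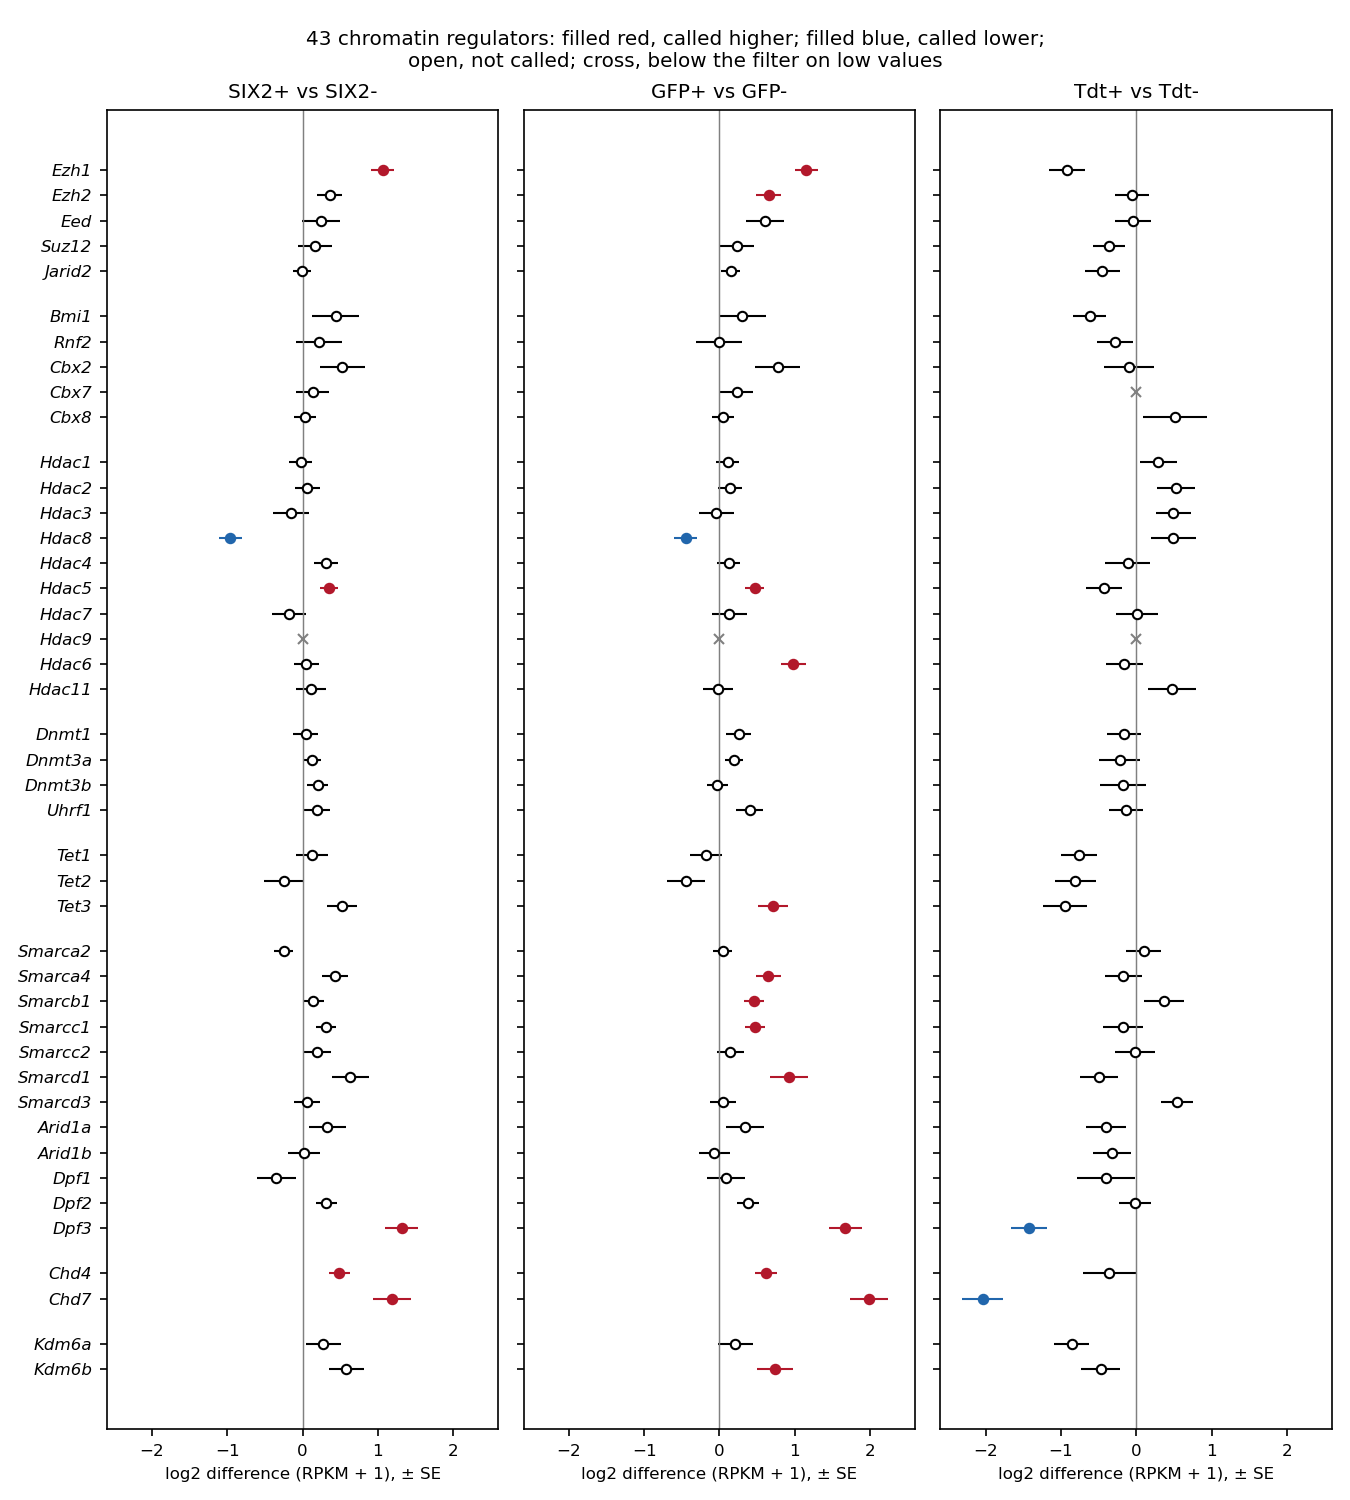
Log2 difference ± SE of each of the 43 members in SIX2+ over SIX2-, GFP+ over GFP- and Tdt+ over Tdt- cells, with members in rows by complex; filled red points were called higher, filled blue points lower, open points were not called, and crosses at 0 mark genes below the filter on low values. Chd7 and Dpf3 are called in all 3 panels, higher in the first 2 and lower in the third.

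Both CHD remodellers were called higher in the progenitors of both sorts. Chd7 (chromosome 4, 8690406 to 8867659, plus strand, GRCm38), a remodeller that binds enhancers and is mutated in CHARGE syndrome in humans, had 6.54, 6.79 and 6.77 RPKM in SIX2+ cells, against 1.91, 2.94 and 2.39 RPKM in SIX2- cells. The GFP+ libraries had 11.0, 5.91 and 11.1 RPKM, against 1.86, 1.49 and 1.23 RPKM in GFP- cells. GFP+ library 2 was the low one of its group, and neither sort had overlapping values. The NZC as a whole had 4.69, 10.1 and 6.02 RPKM. The highest value was that of NZC library 2, with an estimated 3.10 M reads. NZC libraries 1 and 3 lay below all SIX2+ libraries, and of these 2 only library 3 was above a GFP+ library (library 2). Chd7 rose by 1.18 ± 0.25 (log2 difference ± SE, adjusted p = 0.00301) in SIX2+ cells and by 1.99 ± 0.25 (adjusted p = 3.0e-05) in GFP+ cells. With replicates 1 and 2 alone, the call in SIX2+ cells was lost (adjusted p = 0.0566).

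Chd4 is the other CHD member, and was far more abundant per length. It had 91.4, 101 and 114 RPKM in SIX2+ cells, against 62.4, 73.5 and 81.8 RPKM in SIX2- cells. Levels in GFP+ cells were 130.4, 114 and 149 RPKM, against 86.7, 79.4 and 87.6 RPKM in GFP- cells. The groups did not overlap in either sort. Chd4 rose by 0.49 ± 0.14 (adjusted p = 0.0225) in SIX2+ cells and by 0.62 ± 0.14 (adjusted p = 0.00435) in GFP+ cells. In the antibody sort the call was lost on rescaling to TPM (adjusted p = 0.0857) and without SIX2+ library 2 (0.0608), SIX2+ library 3 (0.0967), SIX2- library 1 (0.123) or SIX2- library 2 (0.0579). Of the 9 other CHD and ISWI genes tested, 1 was called higher and 1 lower in SIX2+ cells (8.37% and 15.9% of all genes). In GFP+ cells 1 was called higher and 2 lower (15.9% and 17.0% of all genes). Smarca1, an ISWI ATPase, averaged 1.49 ± 0.41 RPKM in SIX2+ cells and 10.6 ± 2.19 RPKM in SIX2- cells (SD, n = 3 each), a log2 difference of -2.22 ± 0.24 (adjusted p = 7.65e-06). It averaged 2.79 ± 0.41 RPKM in GFP+ cells and 21.1 ± 4.61 RPKM in GFP- cells, a log2 difference of -2.53 ± 0.24 (adjusted p = 1.5e-06). Chd1l, a remodeller linked to DNA repair, rose by 0.52 ± 0.16 in SIX2+ cells (adjusted p = 0.0266). Chd3, the NuRD paralogue of Chd4, fell in GFP+ cells, where it averaged 49.9 ± 10.6 RPKM, against 87.2 ± 11.8 RPKM in GFP- cells (log2 difference -0.81 ± 0.20, adjusted p = 0.00724).

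**Figure D3:**
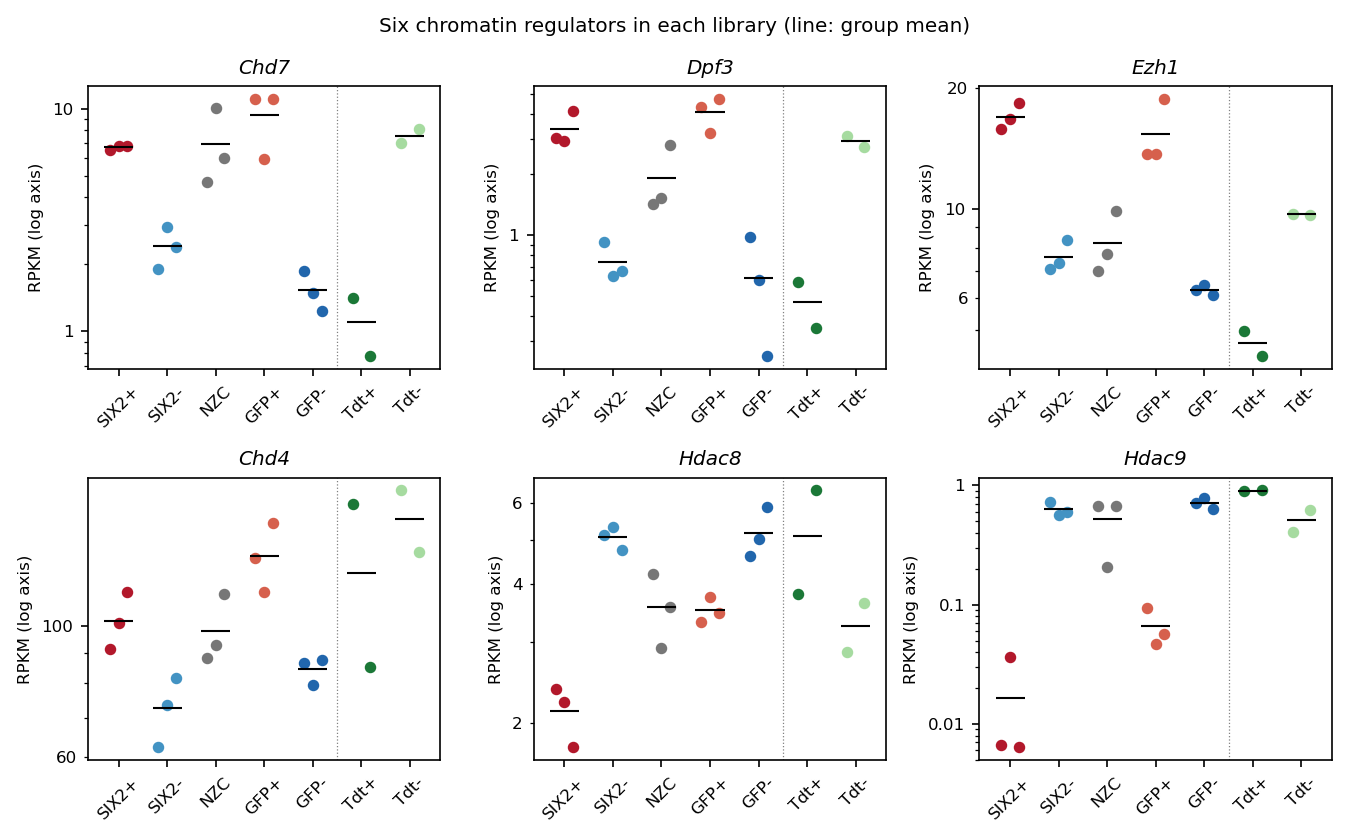
Level of Chd7, Dpf3, Ezh1, Chd4, Hdac8 and Hdac9 in every library (points, RPKM on a log axis) by group, with the group mean as a line; the dotted line separates the E16.5 from the E14.5 table, which were normalised separately. Chd7, Dpf3 and Ezh1 are higher in SIX2+ than in SIX2- cells and in GFP+ than in GFP- cells, and lower in Tdt+ than in Tdt- cells. In the NZC, Chd7 ranges from 4.69 to 10.1 RPKM, with the shallow library 2 highest and libraries 1 and 3 below every SIX2+ library. Hdac9 lies under 0.1 RPKM in every SIX2+ and GFP+ library.

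Among the 12 BAF members, the largest difference was that of Dpf3, a tissue-restricted subunit whose PHD fingers read histone tails (chromosome 12, 83213745 to 83487716, minus strand). Dpf3 had 3.02, 2.92 and 4.13 RPKM in SIX2+ cells, against 0.92, 0.63 and 0.67 RPKM in SIX2- cells. The GFP+ libraries had 4.33, 3.22 and 4.74 RPKM, against 0.99, 0.60 and 0.25 RPKM in GFP- cells. Every SIX2+ and GFP+ library was above every SIX2- and GFP- library, and Dpf3 passed the filter on low values through the groups in which it was high. The NZC libraries, with 1.43, 1.54 and 2.80 RPKM, lay below all of the progenitor libraries. It rose by 1.32 ± 0.22 (adjusted p = 0.000455) in SIX2+ cells and by 1.67 ± 0.22 (adjusted p = 4.2e-05) in GFP+ cells. Its paralogues share the place in the complex. Dpf2, the widely expressed paralogue, averaged 41.4 ± 5.80 RPKM in SIX2+ cells and 33.0 ± 3.29 RPKM in SIX2- cells, and its log2 difference of 0.31 ± 0.14 missed the threshold (adjusted p = 0.138) but passed with the replicate block (0.0473). In GFP+ cells its difference was 0.38 ± 0.14 (adjusted p = 0.0553, and 0.0166 with the block). Dpf1, known from neurons, stood at 1.49 ± 0.12 RPKM in SIX2+ cells and 2.17 ± 0.25 RPKM in SIX2- cells (adjusted p = 0.388). Dpf3 was thus the least abundant of the 3 in SIX2- cells and the second in SIX2+ cells.

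The ATPases of BAF are Smarca4 (BRG1) and Smarca2 (BRM). Smarca4 averaged 95.0 ± 13.8 RPKM in GFP+ cells and 59.9 ± 6.29 RPKM in GFP- cells, and rose by 0.65 ± 0.17 (adjusted p = 0.00796). In SIX2+ cells it averaged 78.1 ± 11.8 RPKM, against 58.0 ± 11.4 RPKM in SIX2- cells. These ranges overlapped, the log2 difference was 0.43 ± 0.17 (adjusted p = 0.0784), and with the replicate block the adjusted p was 0.00535. Smarca2 gave log2 differences of -0.25 ± 0.13 in SIX2+ cells (adjusted p = 0.194) and 0.04 ± 0.13 in GFP+ cells (adjusted p = 0.834). The ratio of Smarca4 to Smarca2 lay between 6.87 and 10.1 in SIX2+ libraries, against 4.23 to 5.64 in SIX2- libraries. It lay between 4.70 and 6.40 in GFP+ libraries, against 3.18 to 3.97 in GFP- libraries. The ratio was therefore higher in the progenitors of both sorts without overlap, given here as a description. Not every paralogue ratio separated the groups. Smarcc1 to Smarcc2 lay between 1.05 and 1.34 in SIX2+ libraries, against 1.02 to 1.20 in SIX2- libraries, and overlapped in the GFP sort too. The ratios of Dnmt3b to Dnmt3a and of Hdac2 to Hdac1 also overlapped in both sorts. Cbx2 to Cbx7 overlapped in the GFP sort (26.1 to 43.6 in GFP+, against 21.4 to 152 in GFP- libraries).

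Of the 5 core subunits, 3 were called higher in GFP+ cells, beside 15.9% of all genes. Smarcd1, which links BAF to transcription factors, had 54.6, 44.6 and 54.1 RPKM in GFP+ cells, against 28.5, 23.2 and 27.7 RPKM in GFP- cells, and rose by 0.92 ± 0.25 (adjusted p = 0.0108). In SIX2+ cells it had 50.3, 47.4 and 64.1 RPKM, against 30.2, 32.8 and 39.9 RPKM in SIX2- cells. Those groups did not overlap either, and the log2 difference of 0.64 ± 0.25 had an adjusted p of 0.0807, or 0.0283 with the replicate block. Its paralogue Smarcd3, known from heart and muscle, differed by 0.06 ± 0.17 in SIX2+ cells (adjusted p = 0.853) and 0.05 ± 0.17 in GFP+ cells (adjusted p = 0.846). Chpf2 on the opposite strand overlaps 48.2% of the exonic bases of Smarcd3, and whether reads were counted by strand is not given in the sources used here, so its level is uncertain. The ratio of Smarcd1 to Smarcd3 lay between 1.59 and 1.89 in SIX2+ libraries, against 1.01 to 1.21 in SIX2- libraries. It lay between 1.60 and 2.31 in GFP+ libraries, against 0.93 to 1.22 in GFP- libraries.

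Smarcc1, a scaffold subunit, rose by 0.47 ± 0.13 in GFP+ cells (75.9 ± 10.5 RPKM, against 54.3 ± 3.26 RPKM in GFP- cells, adjusted p = 0.0136). Its difference in SIX2+ cells was 0.31 ± 0.13 (adjusted p = 0.107, and 0.0241 with the replicate block). Smarcb1, another core subunit, rose by 0.46 ± 0.14 in GFP+ cells (97.0 ± 8.59 RPKM, against 70.4 ± 7.12 RPKM in GFP- cells, adjusted p = 0.0184). In SIX2+ cells its difference was 0.14 ± 0.14 (adjusted p = 0.521). The calls of Smarcc1 and Smarcb1 in GFP+ cells were sensitive to single libraries. Smarcc1 was lost on leaving out GFP+ library 1 (adjusted p = 0.0665) or library 2 of the GFP- cells (0.0600), and Smarcb1 without GFP+ library 2 (0.0695), GFP- library 1 (0.0796) or GFP- library 2 (0.0609). The scaffold paralogue Smarcc2 and the DNA-binding subunits Arid1a and Arid1b were not called in either sort, with log2 differences between -0.07 and 0.34. Of 13 other BAF and PBAF genes tested, 2 were called higher in SIX2+ cells and 4 in GFP+ cells (8.37% and 15.9% of all genes). None was called lower (15.9% and 17.0% of all genes). Bcl7a averaged 37.7 ± 4.18 RPKM in GFP+ cells and 15.6 ± 1.17 RPKM in GFP- cells (log2 difference 1.22 ± 0.20, adjusted p = 0.000312). In SIX2+ cells Bcl7a averaged 35.5 ± 4.71 RPKM, against 22.2 ± 3.54 RPKM in SIX2- cells (0.65 ± 0.20, adjusted p = 0.028). Ss18l1, the subunit known as CREST in neurons, rose by 0.78 ± 0.16 in SIX2+ cells (adjusted p = 0.00238) and by 0.85 ± 0.16 in GFP+ cells (adjusted p = 0.000958).

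**Figure D4:**
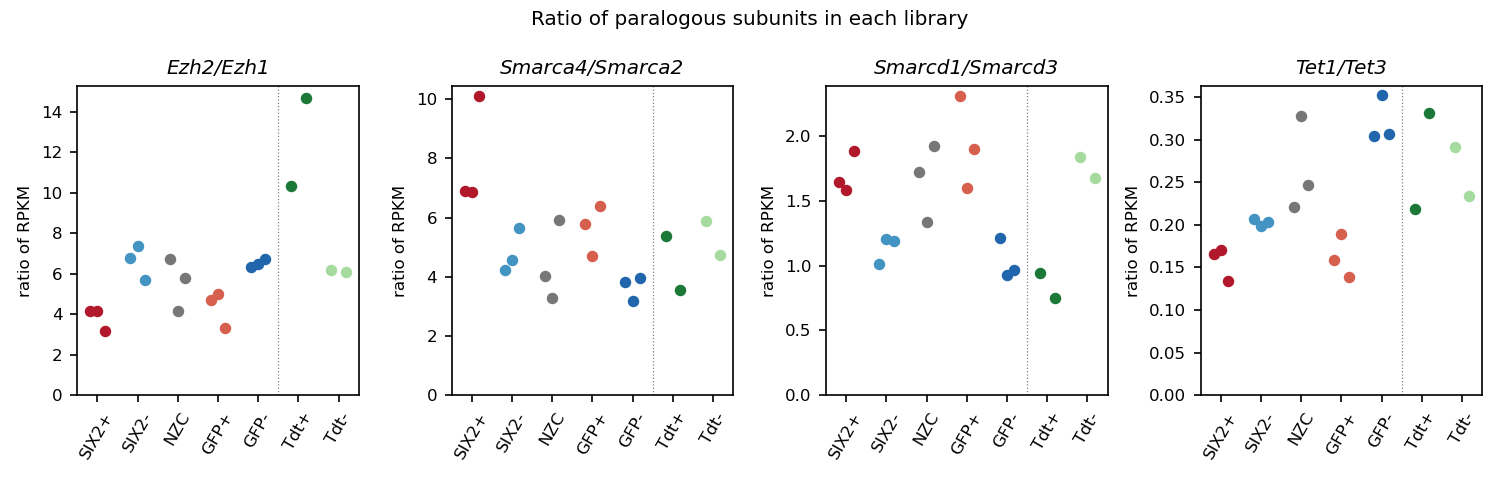
Ratio of the RPKM of paralogous members in every library by group: Ezh2 to Ezh1, Smarca4 to Smarca2, Smarcd1 to Smarcd3 and Tet1 to Tet3; the dotted line separates the E16.5 from the E14.5 table. The Ezh2 to Ezh1 ratio is 3.16 to 5.01 in SIX2+ and GFP+ libraries, a range that holds NZC library 2 (4.17), and is highest in Tdt+ libraries (10.4 and 14.7).

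In PRC2, the largest difference was that of Ezh1. Ezh1 is the methyltransferase usually linked to non-dividing cells, whereas Ezh2 is linked to dividing ones. Ezh1 (chromosome 11, 101191115 to 101226463, minus strand) had 15.8, 16.7 and 18.3 RPKM in SIX2+ cells, against 7.10, 7.34 and 8.36 RPKM in SIX2- cells. Levels in GFP+ cells were 13.7, 13.7 and 18.8 RPKM, against 6.29, 6.46 and 6.09 RPKM in GFP- cells. The NZC as a whole, with 7.01, 7.73 and 9.89 RPKM, lay below all progenitor libraries. Ezh1 rose by 1.06 ± 0.15 (adjusted p = 0.000119) in SIX2+ cells and by 1.15 ± 0.15 (adjusted p = 4.1e-05) in GFP+ cells, and both calls held under all 19 alternative settings run for each. Ezh2 averaged 65.0 ± 3.17 RPKM in GFP+ cells and 40.9 ± 1.02 RPKM in GFP- cells, and rose by 0.66 ± 0.16 (adjusted p = 0.00689). In SIX2+ cells it averaged 64.5 ± 6.12 RPKM, against 50.0 ± 3.68 RPKM in SIX2- cells, a difference of 0.36 ± 0.16 (adjusted p = 0.139).

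Ezh2 remained the more abundant of the pair in every library. The ratio of Ezh2 to Ezh1 lay between 3.16 and 4.18 in SIX2+ libraries, against 5.71 to 7.39 in SIX2- libraries, and between 3.32 and 5.01 in GFP+ libraries, against 6.33 to 6.73 in GFP- libraries. The 14 proliferation markers, set beside these values because of the link of Ezh2 to division, summed to 1131 to 1199 RPKM in SIX2+ cells against 1144 to 1310 RPKM in SIX2- cells. They summed to 1081 to 1194 RPKM in GFP+ cells, against 1041 to 1147 RPKM in GFP- cells. Positive log2 differences were found for 4 of the 14 in SIX2+ cells (median -0.10) and for 5 in GFP+ cells (median -0.08). Of the 14, 2 fell in SIX2+ cells, and 2 rose and 2 fell in GFP+ cells, and their part in the Ezh ratio was not tested. Eed, which reads the methyl mark, Suz12, the scaffold, and Jarid2, an accessory subunit, were not called in either sort. Eed in GFP+ cells (28.2 ± 3.86 RPKM, against 18.2 ± 3.65 RPKM in GFP- cells) had an adjusted p of 0.0788, or 0.0275 with the replicate block. Of 6 other PRC2 genes tested, Phf19 rose in both sorts. Phf19, which recruits PRC2 to methylated lysine 36 of histone H3, had 34.8, 32.8 and 47.1 RPKM in SIX2+ cells, against 3.05, 3.23 and 7.92 RPKM in SIX2- cells (log2 difference 2.86 ± 0.50, adjusted p = 0.00062). In GFP+ cells it averaged 12.8 ± 0.70 RPKM, against 3.47 ± 0.94 RPKM in GFP- cells (1.64 ± 0.50, adjusted p = 0.0208). Rbbp7, a histone chaperone that PRC2 shares with NuRD, fell by 0.53 ± 0.16 on the log2 scale in GFP+ cells (adjusted p = 0.0191).

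No PRC1 member was called by limma in either sort. Over all 12817 genes tested, 4301 had an unadjusted p under 0.05 in the antibody sort and 5426 in the GFP sort. Of the 5 PRC1 members, 0 had such a p in the antibody sort and 1 in the GFP sort. That 1 was Cbx2, a chromodomain subunit that compacts chromatin. Cbx2 averaged 16.1 ± 2.95 RPKM in GFP+ cells and 8.91 ± 0.95 RPKM in GFP- cells, without overlap (log2 difference 0.77 ± 0.30, adjusted p = 0.0591, and 0.0072 with the replicate block). In SIX2+ cells it averaged 19.6 ± 5.11 RPKM, against 13.4 ± 3.98 RPKM in SIX2- cells (adjusted p = 0.239, and 0.0511 with the block). Bmi1 and Rnf2, the RING proteins of the catalytic core, had log2 differences of 0.44 ± 0.31 and 0.22 ± 0.31 in SIX2+ cells, and of 0.31 ± 0.31 and -0.01 ± 0.31 in GFP+ cells. These errors are among the widest of the members. Of 16 other PRC1 genes, 1 was called higher and 1 lower in SIX2+ cells (8.37% and 15.9% of all genes). In GFP+ cells 5 were called higher and 1 lower (15.9% and 17.0% of all genes). Pcgf1, the RING protein of a variant PRC1, rose by 0.80 ± 0.14 in SIX2+ cells (18.5 ± 1.68 RPKM, against 10.2 ± 0.87 RPKM in SIX2- cells, adjusted p = 0.000609) and by 0.88 ± 0.14 in GFP+ cells (adjusted p = 0.000225). Cbx6, a further chromodomain paralogue, fell by 0.50 ± 0.14 on the log2 scale in SIX2+ cells (adjusted p = 0.017). In GFP+ cells Pcgf6, the RING protein of another variant PRC1, rose by 0.78 ± 0.28 (adjusted p = 0.0427, and 0.0536 with the replicate block).

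Among the 10 HDACs, the abundant class I enzymes showed no called difference, and the members that were called belonged to several classes. Hdac1, Hdac2 and Hdac3, the catalytic subunits of the nuclear corepressor complexes, had log2 differences between -0.15 and 0.14 in both sorts. Hdac8, the class I enzyme that deacetylates cohesin (chromosome X, 102284639 to 102505359, minus strand), was the member called lower. It had 2.37, 2.22 and 1.77 RPKM in SIX2+ cells, against 5.11, 5.33 and 4.74 RPKM in SIX2- cells. The GFP+ libraries had 3.320, 3.762 and 3.463 RPKM, against 4.616, 5.002 and 5.895 RPKM in GFP- cells. All progenitor libraries were below all other sorted E16.5 libraries, and the NZC libraries lay between 2.91 and 4.21 RPKM. Hdac8 fell by 0.96 ± 0.15 on the log2 scale in SIX2+ cells (adjusted p = 0.000268) and by 0.45 ± 0.15 in GFP+ cells (adjusted p = 0.0348). The second call was lost without GFP+ library 1 (adjusted p = 0.0983), 2 (0.053) or 3 (0.0816) and without GFP- library 2 (0.0771) or 3 (0.122).

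The class IIa enzymes act mainly as corepressors that shuttle between nucleus and cytoplasm. Hdac5 had 16.9, 15.6 and 16.9 RPKM in SIX2+ cells, against 12.5, 12.1 and 13.4 RPKM in SIX2- cells. It had 16.8, 16.4 and 18.7 RPKM in GFP+ cells, against 11.8, 12.7 and 12.2 RPKM in GFP- cells. The values did not overlap in either sort. Hdac5 rose by 0.35 ± 0.12 in SIX2+ cells (adjusted p = 0.0484) and by 0.47 ± 0.12 in GFP+ cells (adjusted p = 0.00876). The first call lay at the threshold and was lost when any of the 6 libraries was left out (adjusted p between 0.0673 and 0.152). Rescaled to TPM, its adjusted p was 0.163 in SIX2+ cells and 0.0858 in GFP+ cells. Hdac4 and Hdac7 were not called, with log2 differences between -0.18 and 0.31, and Gm26720 on the opposite strand overlaps 22.4% of the exonic bases of Hdac4.

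Hdac9 (chromosome 12, 34047580 to 34917095, minus strand), whose promoter windows held 0 and 2 CG dinucleotides, was too low for the filter but divided the groups. It had 0.0067, 0.036 and 0.0064 RPKM in SIX2+ cells, against 0.72, 0.57 and 0.60 RPKM in SIX2- cells. Levels in GFP+ cells were 0.093, 0.047 and 0.057 RPKM, against 0.71, 0.78 and 0.63 RPKM in GFP- cells. These levels correspond to about 2.7 to 24.5 reads in SIX2+ libraries, against 279 to 359 reads in SIX2- libraries, so the low values rest on few reads. In the fit without a filter, the log2 difference was -0.68 ± 0.10 in both sorts, with adjusted p = 0.000571 for SIX2+ and 0.000425 for GFP+ cells. Each of the 6 progenitor libraries was below each of the other sorted E16.5 libraries.

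Hdac6, the class IIb enzyme that deacetylates tubulin (chromosome X, 7930120 to 7947889, minus strand), was called in the GFP sort. It had 20.4, 21.5 and 28.9 RPKM in GFP+ cells, against 9.95, 10.6 and 13.7 RPKM in GFP- cells, and rose by 0.98 ± 0.17 (adjusted p = 0.000442). In SIX2+ cells it had 16.17, 16.57 and 17.16 RPKM, against 14.46, 16.47 and 17.24 RPKM in SIX2- cells. Those values overlapped, and the log2 difference was 0.05 ± 0.17 (adjusted p = 0.878). Tested directly, the difference of the antibody sort minus that of the GFP sort was -0.93 ± 0.24 for Hdac6 (unadjusted p = 0.00159, adjusted p = 0.17). Hdac11, the class IV enzyme, was not called in either sort, and Gm44002 on the opposite strand overlaps 15.4% of its exonic bases. Because Hdac6 and Hdac8 are X-linked, a list of 5 sex-linked genes was set beside them, and none of its members was called in either sort. Xist, the RNA of the inactive X chromosome, stood at 34.5, 75.9 and 38.1 RPKM in SIX2+ cells against 23.9, 42.4 and 32.3 RPKM in SIX2- cells. It stood at 28.7, 26.0 and 60.3 RPKM in GFP+ cells, against 22.9, 38.6 and 23.5 RPKM in GFP- cells. Its part in these results was not tested.

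Of 19 other HDACs and corepressors tested, 2 were called higher and 2 lower in SIX2+ cells (8.37% and 15.9% of all genes). In GFP+ cells 2 were called higher and 1 lower (15.9% and 17.0% of all genes). Rcor2, a partner of the demethylase Kdm1a and of Hdac1 and Hdac2, averaged 38.5 ± 9.99 RPKM in SIX2+ cells and 12.4 ± 2.53 RPKM in SIX2- cells. It rose by 1.55 ± 0.28 (adjusted p = 0.000761). In GFP+ cells it averaged 31.4 ± 5.29 RPKM, against 6.91 ± 1.43 RPKM in GFP- cells, and rose by 2.04 ± 0.28 (adjusted p = 5.6e-05). Mta3, a NuRD subunit, fell by 0.44 ± 0.14 on the log2 scale in SIX2+ cells (adjusted p = 0.0328) and by 0.56 ± 0.14 in GFP+ cells (adjusted p = 0.00642).

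Of the 7 DNA methylation members, 0 were called in SIX2+ cells and 1 was called higher in GFP+ cells. The shares of all genes called in these sorts were 24.3% and 32.9%. Dnmt1 and Uhrf1, which copy methylation after replication, Dnmt3a and Dnmt3b, which set new marks, and Tet1 and Tet2 were not called in either sort, with log2 differences between -0.44 and 0.40. For Uhrf1 in GFP+ cells (82.9 ± 5.23 RPKM, against 62.8 ± 8.62 RPKM in GFP- cells) the adjusted p was 0.0984, or 0.0335 with the replicate block. Tet3, the most abundant Tet enzyme here, had 23.8, 13.9 and 23.0 RPKM in GFP+ cells, against 13.8, 11.6 and 9.77 RPKM in GFP- cells. GFP+ library 2 came within a small margin of GFP- library 1, and Tet3 rose by 0.71 ± 0.20 (adjusted p = 0.0134). That call was lost without GFP+ library 1 (adjusted p = 0.0649), GFP+ library 3 (0.0617) or GFP- library 3 (0.0579). In SIX2+ cells Tet3 averaged 14.4 ± 1.28 RPKM, against 9.73 ± 0.83 RPKM in SIX2- cells, a difference of 0.52 ± 0.20 (adjusted p = 0.0756, and 0.0343 with the block). The ratio of Tet1 to Tet3 lay between 0.134 and 0.171 in SIX2+ libraries, against 0.199 to 0.206 in SIX2- libraries, and between 0.139 and 0.189 in GFP+ libraries, against 0.304 to 0.352 in GFP- libraries. Of 12 other DNA methylation genes tested, 4 were called lower in SIX2+ cells and none higher (15.9% and 8.37% of all genes). In GFP+ cells 1 was called higher and 2 lower (15.9% and 17.0% of all genes). Gadd45g, a stress-induced gene linked to demethylation, averaged 11.2 ± 2.16 RPKM in SIX2+ cells and 22.5 ± 3.32 RPKM in SIX2- cells, a log2 difference of -0.95 ± 0.16 (adjusted p = 0.00044). Gadd45b fell by 0.58 ± 0.18 on the log2 scale in SIX2+ cells (adjusted p = 0.0292). In GFP+ cells Uhrf2, the paralogue of Uhrf1, rose by 0.67 ± 0.12 (adjusted p = 0.000658), and Mbd2, a reader of methylated DNA, fell by 0.55 ± 0.13 (adjusted p = 0.00378).

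Of the demethylases of lysine 27, Kdm6b had 33.70, 20.97 and 38.16 RPKM in GFP+ cells, against 18.62, 14.49 and 20.16 RPKM in GFP- cells. The lowest GFP+ library, library 2, was just above the highest GFP- library, and Kdm6b rose by 0.74 ± 0.23 (adjusted p = 0.0262). The call was lost without GFP+ library 1 (adjusted p = 0.0885), GFP+ library 3 (0.115), GFP- library 1 (0.0535) or GFP- library 2 (0.109), and with median-of-ratios scaling (0.0553). In SIX2+ cells Kdm6b averaged 28.5 ± 5.66 RPKM, against 18.7 ± 3.87 RPKM in SIX2- cells, a difference of 0.58 ± 0.23 (adjusted p = 0.0918, and 0.0142 with the replicate block). Kdm6a, its X-linked paralogue, was not called, with log2 differences of 0.27 ± 0.23 in SIX2+ and 0.21 ± 0.23 in GFP+ cells. Of 20 other histone methylation and acetylation genes, 3 were called higher in SIX2+ cells and 5 in GFP+ cells (8.37% and 15.9% of all genes). None was called lower (15.9% and 17.0% of all genes). All 20 had positive differences in each sort, beside 6943 of 12817 genes in SIX2+ cells and 7352 in GFP+ cells. Kdm5b, a demethylase of lysine 4 of histone H3, rose by 0.52 ± 0.17 in SIX2+ cells (adjusted p = 0.0358), and Setdb1, a methyltransferase of lysine 9, rose by 0.45 ± 0.14 (adjusted p = 0.0358). In GFP+ cells Kat2a, an acetyltransferase, rose by 0.69 ± 0.19 (adjusted p = 0.0111) and Kdm1a by 0.69 ± 0.14 (adjusted p = 0.00149).

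At E14.5, Chd7 fell in the Foxd1-lineage cells. Dpf3, which passed the filter on low values only through the Tdt- libraries, in which it was high, was also called lower. Of 41 members tested, 0 were called higher and 2 lower in Tdt+ cells against Tdt- cells, with a background of 8.43% called, 1.22% higher and 7.21% lower, against 4.88% of members called lower. Chd7 had 1.42 and 0.78 RPKM in Tdt+ cells, against 6.999 and 8.10 RPKM in Tdt- cells, a log2 difference of -2.04 ± 0.27 (adjusted p = 0.00417). Dpf3 had 0.59 and 0.35 RPKM in Tdt+ cells, against 3.11 and 2.75 RPKM in Tdt- cells, a log2 difference of -1.43 ± 0.24 (adjusted p = 0.0102). The values of both genes were far apart between the groups. Both calls were lost in the fit without a filter (adjusted p = 0.0694 for Chd7 and 0.0653 for Dpf3), and Dpf3 no longer passed the filter when either Tdt- library was left out. Six2, the nephron progenitor factor, stood at 0.65 and 2.14 RPKM in Tdt+ cells, against 117 and 96.6 RPKM in Tdt- cells. All 7 markers of differentiating nephrons that were tested fell (sums of 4.19 to 4.88 RPKM in Tdt+ cells, against 110.3 to 139 RPKM in Tdt- cells, with Lhx1 at 0 in both Tdt+ libraries), as did 4 of 6 endothelial and 4 of 5 leukocyte markers, with Ptprc and Tyrobp at 0 in both Tdt+ libraries. Their part in these results was not tested.

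Ezh1 had 4.99 and 4.31 RPKM in Tdt+ cells, against 9.72 and 9.66 RPKM in Tdt- cells. The groups did not overlap, but the log2 difference of -0.92 ± 0.24 missed the threshold (adjusted p = 0.058), in a fit with 2 residual degrees of freedom. Ezh2 averaged 57.5 ± 8.35 RPKM in Tdt+ cells and 59.6 ± 0.92 RPKM in Tdt- cells (SD, n = 2 each), so the ratio of Ezh2 to Ezh1 was 14.7 and 10.4 in Tdt+ libraries, against 6.20 and 6.10 in Tdt- libraries. The 14 proliferation markers summed to 1294 to 1612 RPKM in Tdt+ cells, against 1171 to 1172 RPKM in Tdt- cells, and 2 of them rose. Their part in the ratio was not tested. All 3 Tet enzymes were lower in mean in Tdt+ cells, with log2 differences of -0.76 ± 0.24 for Tet1, -0.81 ± 0.27 for Tet2 and -0.95 ± 0.29 for Tet3 (adjusted p = 0.104, 0.124 and 0.0972). Kdm6a had 7.55 and 6.60 RPKM in Tdt+ cells, against 13.4 and 13.8 RPKM in Tdt- cells (log2 difference -0.86 ± 0.23, adjusted p = 0.0653). Beside this X-linked gene, Xist stood at 12.9 and 9.55 RPKM in Tdt+ cells, against 39.9 and 29.7 RPKM in Tdt- cells. Xist had the lowest log2 difference of the 5 sex-linked genes (-1.55), and 1 of the 5 was called lower. The part of Xist was not tested.

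The ratio of Smarcd1 to Smarcd3 was 0.94 and 0.75 in Tdt+ libraries, against 1.84 and 1.68 in Tdt- libraries. Hdac9 stood at 0.89 and 0.91 RPKM in Tdt+ cells, against 0.40 and 0.62 RPKM in Tdt- cells, and was below the filter. Over the members tested, values of the groups did not overlap for 5 that were higher and 15 that were lower in Tdt+ cells. Over all genes, 23.6% were higher and 31.0% lower without overlap. Tdt+ library 2 was lower than Tdt+ library 1 for several large members, such as Chd4 with 85.4 and 160.5 RPKM. Other abundant members went the other way, such as Smarcb1 with 111 and 75.1 RPKM and Hdac1 with 82.6 and 59.5 RPKM. Without Tdt+ library 1, 1 member was called higher (Smarcb1) and 10 lower, beside 10.5% and 17.2% of all genes, the 2 above with Ezh1, Tet1, Tet3, Smarcd1, Arid1a, Chd4, Kdm6a and Kdm6b, each on 1 Tdt+ library assumed to vary like the others. The lower depth of the Tdt+ libraries moves with the groups, and its part was not tested. Of 95 other chromatin genes tested, 0 were called higher and 2 lower. Phf19 had 4.59 and 3.26 RPKM in Tdt+ cells, against 20.0 and 13.6 RPKM in Tdt- cells (log2 difference -1.84 ± 0.29, adjusted p = 0.00784). Kmt2a, a methyltransferase of lysine 4, averaged 5.67 ± 0.28 RPKM in Tdt+ cells and 13.3 ± 1.97 RPKM in Tdt- cells (-1.09 ± 0.24, adjusted p = 0.0326).

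SIX2+ and GFP+ cells, the progenitors of both preparations, were compared directly. Of 42 members, 0 were called higher and 3 lower in SIX2+ cells, with a background of 3.07% called, 0.772% higher and 2.30% lower. Rescaled to TPM, Smarca2 alone was called, beside 2.23% of all genes called lower, with adjusted p-values of 0.0735 for Dnmt3a and 0.0533 for Smarcc1. Smarca2 had 10.2, 10.6 and 9.08 RPKM in SIX2+ cells, against 17.5, 16.9 and 16.3 RPKM in GFP+ cells, a log2 difference of -0.71 ± 0.13 (adjusted p = 0.00739). The groups were well apart, and the call was lost without GFP+ library 1 (adjusted p = 0.0508). Smarcc1 averaged 50.5 ± 2.93 RPKM in SIX2+ cells and 75.9 ± 10.5 RPKM in GFP+ cells (-0.57 ± 0.13, adjusted p = 0.0292). Dnmt3a averaged 23.2 ± 1.23 RPKM in SIX2+ cells and 32.8 ± 3.68 RPKM in GFP+ cells (-0.48 ± 0.12, adjusted p = 0.0482). Both of these were lost without any 1 of SIX2+ libraries 1, 2 and 3 and GFP+ libraries 1 and 3, with adjusted p between 0.0664 and 0.18 for Smarcc1 and between 0.108 and 0.239 for Dnmt3a. The preparations differ in the allele, the fixation and staining implied by the antibody sort, and the cells taken, and these cannot be told apart.

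In SIX2- against GFP- cells, 1 member was called higher and 1 lower, with a background of 10.1% called, 5.70% higher and 4.42% lower. Smarcb1 averaged 101 ± 8.27 RPKM in SIX2- cells and 70.4 ± 7.12 RPKM in GFP- cells (0.51 ± 0.14, adjusted p = 0.0316), a call lost under all 3 other scalings (adjusted p between 0.0908 and 0.191) and without any 1 of SIX2- libraries 1, 2 and 3 and GFP- libraries 1 and 2 (adjusted p between 0.0529 and 0.142). Dnmt3a averaged 21.3 ± 2.46 RPKM in SIX2- cells and 28.5 ± 0.81 RPKM in GFP- cells (-0.41 ± 0.12, adjusted p = 0.0474), a call lost without any 1 of SIX2- libraries 1 and 2 and GFP- libraries 1, 2 and 3 (adjusted p between 0.083 and 0.192). With the replicate block, 2 members were called higher and 4 lower, beside 12.0% and 7.75% of all genes, with Hdac6 gained among the higher (adjusted p = 0.0261) and Smarca2 (0.0253), Smarcc1 (0.029) and Tet1 (0.0393) among the lower. Dnmt3a was thus called lower in SIX2+ than in GFP+ cells and in SIX2- than in GFP- cells, both times near the threshold. What made the preparations differ was not tested. Whether the sorts differ in the contrast itself was tested for all members: by limma, 0 of 42 were called for the antibody sort difference minus the GFP sort difference, and 3 (Hdac6, Hdac8 and Chd7) had an unadjusted p under 0.05. Over all genes, 0.140% were called in this test, 0.0468% higher and 0.0936% lower, and 703 of 12817 had an unadjusted p under 0.05. For Chd7 that difference was -0.81 ± 0.36 and for Hdac8 -0.52 ± 0.21 (adjusted p = 0.842 and 0.762), and neither passed the threshold.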

How the data were processed

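Messenger RNA of sorted mouse embryonic kidney cells was sequenced, and TopHat2, Partek and the build mm10 are named, without roles, per the submitters' processing notes. Which gene annotation was used, and whether counting used strand, is not given in the sources used here. Per the deposit, the authors gave 1 table of 15 libraries (E16.5) and 1 of 4 (E14.5), titled TPM. The deposited values behave as RPKM: column sums differed (339454 to 429529 at E16.5, 342196 to 453324 at E14.5). The tables were normalised separately, and tests stayed within a table. Depth was estimated from low values and is approximate.

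Values were compared as log2(RPKM + 1), a scale that understates changes of low genes, with limma 3.58.1 (moderated, with trend, two-sided) in R 4.3.3. Python 3.11.15 and pandas 2.3.3 made the summaries, and matplotlib 3.10.9 the figures. Genes at 1 or more in at least 3 libraries (E16.5) or 2 (E14.5) were tested, and adjusted p-values (Benjamini-Hochberg) cover all of them. The E16.5 fit held all 15 libraries, with 10 residual degrees of freedom. Members and lists were chosen with earlier results of these data known. Other chromatin genes were named from 7 lists (104 genes, 100 found), at most 2 per list and comparison, by the largest log2 difference among those called and averaging 5 or more. A result that this rule names, and the count that holds it, are not reported here. Same-numbered libraries deviated together between SIX2+ and SIX2- (r of 0.279 to 0.676), GFP+ and GFP- (0.390 to 0.455) and SIX2- and GFP- cells (0.440 to 0.552), so the replicate block is given there. These r values do not show whether same-numbered libraries share animals or a batch. Alternatives were other pseudocounts, filters, scalings and weights, fits without libraries or groups, and the block. The limma script was tested on simulated data. Promoters are from RefSeq on GRCm38.p6 and gene positions from GENCODE M21 on GRCm38.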

Additional observations from a re-analysis of the deposited data

How the results depend on the processing

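No member changed direction among called differences in any alternative run. The counts of members called (higher and lower) moved as follows. SIX2+ against SIX2- (5 and 1): 3 higher with values of at least 5, 3 rescaled to TPM, 3 with replicates 1 and 2, 8 without NZC library 2, 9 with the groups compared alone, 11 with the replicate block, 17 and 4 with library weights, 2 lower without a filter, and 3 to 5 higher leaving out 1 library. GFP+ against GFP- (13 and 1): 7 higher rescaled to TPM, 20 and 2 with weights, 2 lower without a filter, 0 lower with values of at least 5, quantile normalisation or replicates 1 and 2, and 0 to 1 lower leaving out 1 library, with 9 to 17 higher in the alternatives other than TPM and weights. Tdt+ against Tdt- (0 and 2): 0 lower without a filter, 1 with values of at least 5 or quantile normalisation, 7 with the replicate block (Ezh1, Tet1, Tet2, Tet3 and Kdm6a gained, adjusted p between 0.00666 and 0.0328), whose numbers with 2 pairs (r = 0.399) are not known to pair the libraries, and 0 to 1 higher and 1 to 10 lower leaving out 1 library. SIX2+ against GFP+ (0 and 3): 3 and 12 with weights, 1 lower rescaled to TPM, 0 with replicates 1 and 2, and 0 to 3 leaving out 1 library. The block is not given here, since same-numbered libraries did not all deviate together (r of -0.017 to 0.584). SIX2- against GFP- (1 and 1): 0 and 3 with median-of-ratios scaling, 0 and 2 with quantile normalisation, 0 and 3 rescaled to TPM, 15 and 7 with weights, 2 and 4 with the block, 3 and 6 without NZC library 2, 2 and 6 with the groups alone, 0 and 0 with replicates 1 and 2, 0 lower with no trend, 2 lower with values of at least 5 or no filter, and 0 to 1 higher and 0 to 2 lower leaving out 1 library. The antibody minus GFP sort difference (0 and 0) had 5 lower with weights. Counts over all genes moved too. In SIX2- against GFP- cells they went from 730 higher and 566 lower to 362 and 837 with median-of-ratios scaling. The share of all genes is given above for only some of these settings. For the rest, the counts do not show whether members moved apart from other genes. Why the counts moved was not tested.

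The share of calls over all genes that were higher also moved with the scaling. It was 34.5% in SIX2+ against SIX2- cells (50.1% after quantile normalisation), 48.2% in GFP+ against GFP- cells (36.9% as TPM), 14.46% in Tdt+ against Tdt- cells (33.1% after quantile normalisation), and 56.3% in SIX2- against GFP- cells (30.2% with median-of-ratios scaling, 37.7% after quantile normalisation, 25.1% as TPM). Rescaling to TPM shifted the median log2 difference of all genes to -0.26, against -0.04, in Tdt+ against Tdt- cells, and to -0.07, against 0.10, in SIX2- against GFP- cells. Low members, Hdac9 above all, rest on few reads, and 2 libraries a group limit the E14.5 comparison.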

Other observations

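Chromatin genes outside the 43 differed between the preparations as well. Of 95 tested, 2 were called higher and 10 lower in SIX2- against GFP- cells, which is 2.11% and 10.5% of them, beside 5.70% and 4.42% of all genes. Gatad2b, a NuRD subunit, had 2.40, 4.36 and 7.26 RPKM in SIX2+ cells, against 22.4, 14.6 and 19.7 RPKM in GFP+ cells, a log2 difference of -1.88 ± 0.34 (limma, adjusted p = 0.00739). It had 2.56, 3.88 and 6.30 RPKM in SIX2- cells, against 17.0, 15.4 and 17.7 RPKM in GFP- cells, a difference of -1.82 ± 0.34 (adjusted p = 0.00666). All antibody-sorted libraries were below all GFP-sorted ones. Rcor1, the widely expressed paralogue of Rcor2, did the same, with differences of -1.43 ± 0.29 in SIX2+ against GFP+ cells (adjusted p = 0.0138) and -1.48 ± 0.29 in SIX2- against GFP- cells (adjusted p = 0.00812). Crebbp and Ep300, paralogous acetyltransferases, fell by 1.25 ± 0.36 and 0.87 ± 0.24 on the log2 scale in SIX2- against GFP- cells (adjusted p = 0.0436 and 0.0346). Tdg, a glycosylase that removes oxidised methylcytosine, fell by 0.85 ± 0.19 (adjusted p = 0.0174), and Gadd45g rose by 0.85 ± 0.16 (adjusted p = 0.00659). In the same comparison Pcgf3, a RING protein of variant PRC1, Pbrm1, a subunit of PBAF, and Smarca1 fell by 0.79 ± 0.18, 0.60 ± 0.16 and 0.92 ± 0.24 on the log2 scale (adjusted p = 0.019, 0.036 and 0.0269). The unsorted NZC, prepared with the antibody-sorted groups per the labels' titles, had 13.9, 32.1 and 20.3 RPKM of Gatad2b and 17.9, 30.6 and 20.3 RPKM of Rcor1, above all antibody-sorted libraries for both genes. NZC library 1 was just under the lowest GFP-sorted library for Gatad2b (14.6 RPKM). Library 2 of the NZC was the highest for both genes and the shallow library described above.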
